A study of Homo sapiens with 9 samples.

Results

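The 8 genes considered here encode components of the PI3K, AKT and mTOR pathway. They are given by symbol (PIK3CA, PIK3R1, AKT1, MTOR, RPTOR, RICTOR, DEPTOR and DDIT4) with no threshold on a measured value, but the list was drawn up with earlier results of these data known. Of these, 7 matched a transcript cluster that carries a single gene symbol in the annotation of the array, out of 18404 genes tested. PIK3CA had no such match and is not analysed here. Where a gene had several transcript clusters, the one with the highest mean over the 9 arrays was used. Each value below is an expression level on the log2 scale, so a difference of 1 is a doubling.

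Class I PI3-kinases are lipid kinases that pair a catalytic with a regulatory subunit and are recruited to activated growth factor receptors. Their lipid product brings the kinase AKT to the membrane, and AKT in turn relieves the brake that the TSC complex puts on mTOR, a kinase that works in 2 complexes and promotes protein synthesis and growth. In breast epithelium HER2 acts on this pathway largely through its partner ERBB3, which binds the PI3K regulatory subunit directly. The pathway is regulated mainly by phosphorylation, which an expression array does not measure.

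Whole-transcript arrays were run on MCF10A, a long-established line of human mammary epithelium that does not form tumors. There were 3 arrays for each of 3 groups. These were control cells (parental by their source label, empty vector by the design), a line with wild-type HER2 (WT-HER2) and a line with the splice variant Delta-HER2. All were grown with 5% horse serum, 20 ng/ml epidermal growth factor, 10 µg/ml insulin, hydrocortisone and cholera toxin. They were then kept for 16 hours without serum, in medium for which antibiotics are the single supplement named. How the transgenes were delivered, whether a line is 1 clone and whether replicates were separate cultures are not given in the labels, so p-values measure the spread between these samples, which may be technical. The lines differ in more than their receptor if making a line changes cells, and the design cannot tell these apart.

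ERBB2, which encodes HER2, was at 6.97, 6.91 and 7.10 in the control arrays, at 7.98 in all 3 WT-HER2 arrays and at 8.93, 8.96 and 8.97 in the Delta-HER2 arrays. Both HER2 lines thus lay above control, as their labels say. The lines also differed from each other in ERBB2 level, which was 0.98 higher with Delta-HER2 (1.97-fold, SE 0.07, adjusted p = 8.57e-06), so level and form of the receptor cannot be told apart between them. The 3 WT-HER2 values were identical as deposited (SD 0), which may understate their spread. ERBB3 fell by 1.14 with Delta-HER2 (SE 0.07, adjusted p = 3.60e-06) and was 0.30 lower with WT-HER2 without passing (adjusted p = 0.0902). All 5 basal and epithelial markers found, KRT5 among them, had group means from 7.90 to 11.8. The leukocyte marker PTPRC (group means 2.21 to 2.24) lay under 3.18, a bound on background taken from 340 olfactory receptor genes. In the fibroblast list 4 of 6 genes exceeded that bound, with DCN highest (group means 7.07 to 7.73) and COL1A1 next (5.47 to 5.92). In the blood list 2 of 5 did, with CD68 highest (6.11 to 6.87), and in the endothelial list 1 of 5. The last was PECAM1, with a mean of 3.90 for Delta-HER2 against 3.00 for control and 2.83 for WT-HER2, whereas CDH5 stayed under the bound (2.76 to 3.13). Their part in the results was not tested. Control replicate 1 and WT-HER2 replicate 3 stood apart from their groups on the second principal component (16.6% of the variance). Delta-HER2 replicate 2 was shifted the same way but less far (8.64, against -4.97 and -2.58 in its group). After group means were removed, it correlated with each of these 2 arrays at r = 0.39, and they with each other at 0.64. Whether they share a cause was not tested.

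The members did not move as one. With Delta-HER2, AKT1, MTOR and DDIT4 rose and DEPTOR fell against control, all by less than 1 log2 unit. With WT-HER2, DDIT4 rose and MTOR fell. RICTOR, PIK3R1 and RPTOR passed the test in neither HER2 line against control. Thus 4 of 7 measured members were called with Delta-HER2, where 25.4% of all genes were called. With WT-HER2 the count was 2 of 7, where 1.68% of all genes were called (0.777% higher and 0.902% lower), but it fell to 0 without control replicate 3 and to 1 when any other single array was left out. Between the HER2 lines 3 of 7 were called (MTOR, AKT1 and RPTOR, all higher with Delta-HER2), where 22.8% of all genes were. All genes include many under the background bound, whereas all 7 members lay above it. When only the 13671 genes above it were tested, 4760 were called with Delta-HER2, among them 4 members. With WT-HER2 315 genes and 1 member were called, and between the lines 4317 genes and 3 members. The arrays of the groups did not overlap for 6 of 7 members in either line against control, which held for 14.0% of all genes with WT-HER2 and 37.0% with Delta-HER2, and for 4 of 7 between the lines (34.7% of all genes). The median difference of the members was 0.22 with Delta-HER2 and 0.01 with WT-HER2, against -0.01 and 0.01 over all genes. The test over all 3 groups called MTOR, AKT1, DDIT4 and DEPTOR, where it called 24.4% of all genes.

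**Figure D1:**
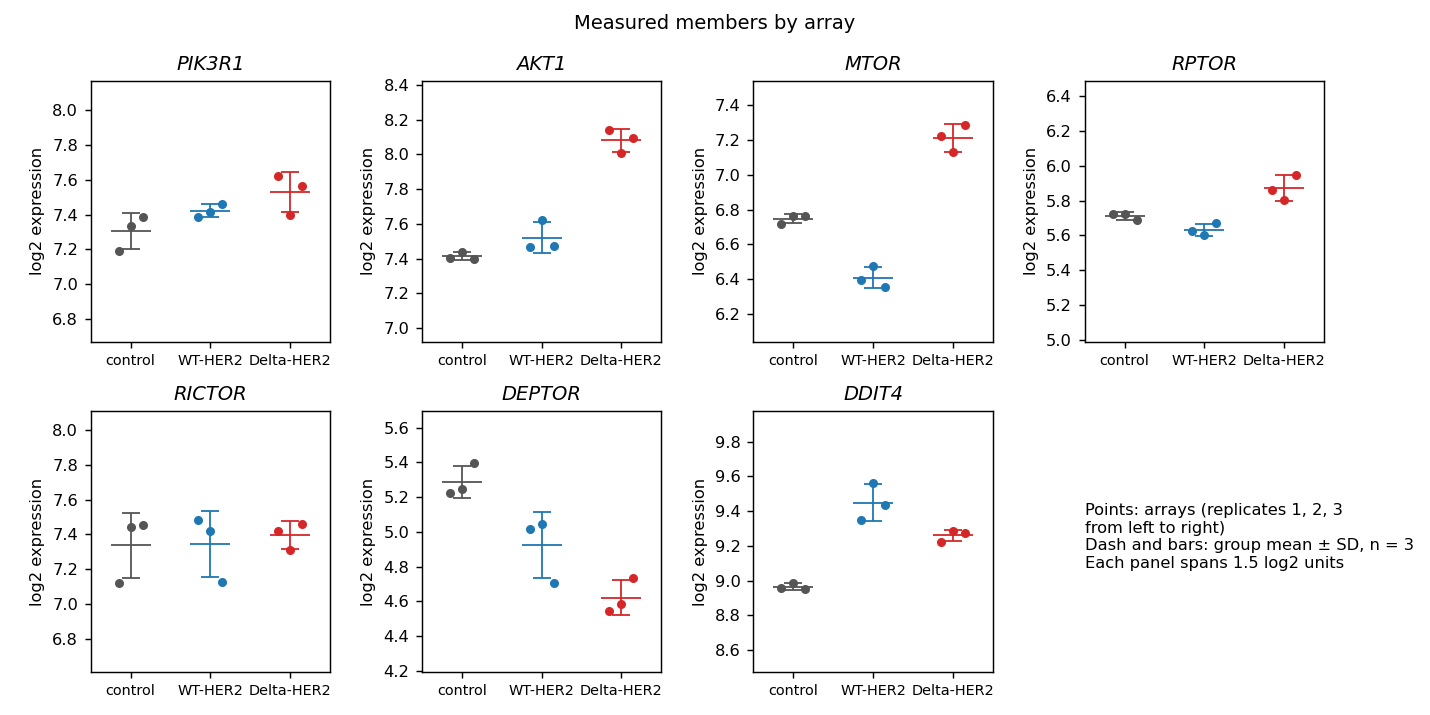
Log2 expression of the 7 measured members on each array (points), with the group mean and SD (n = 3), for control (grey), WT-HER2 (blue) and Delta-HER2 (red) cells; every panel spans the same range of the log2 scale. MTOR stands lowest in WT-HER2 and highest in Delta-HER2 arrays, whereas the RICTOR groups overlap throughout.

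MTOR (transcript cluster 7912412, Entrez gene 2475) encodes the kinase common to both mTOR complexes. Its control arrays read 6.72, 6.76 and 6.76, the WT-HER2 arrays 6.40, 6.48 and 6.35, and the Delta-HER2 arrays 7.22, 7.13 and 7.29. No 2 groups overlapped, and control lay between the HER2 lines. MTOR rose by 0.46 with Delta-HER2 (1.38-fold, SE 0.07, adjusted p = 0.000757) and stood 0.80 higher there than with WT-HER2 (1.75-fold, adjusted p = 3.05e-05). This last contrast is the test that the 2 lines differ, and MTOR kept it under all 21 alternative analyses. With WT-HER2 it fell by 0.34 (SE 0.07, adjusted p = 0.0463), a call that was lost when any 1 of the 9 arrays was left out (adjusted p from 0.0531 to 0.177). The values of control replicates 2 and 3 were identical as deposited, so the control SD of 0.03 may understate the spread.

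RPTOR (8010512, Entrez gene 57521) encodes Raptor, the scaffold that presents substrates to mTOR complex 1. It read 5.72, 5.72 and 5.69 in control, 5.63, 5.60 and 5.67 in WT-HER2 and 5.86, 5.80 and 5.95 in Delta-HER2 arrays. The groups did not overlap, and their order was that of MTOR on a smaller scale. Control replicates 1 and 2 had identical values as deposited, so the control SD of 0.02 may understate the spread. The difference between the HER2 lines passed (0.24, SE 0.07, adjusted p = 0.0264), but not without WT-HER2 replicate 1 (adjusted p = 0.0695) or 2 (0.0808) or Delta-HER2 replicate 1 (0.0661) or 3 (0.0993). Against control the differences were 0.16 with Delta-HER2 (95% interval 0.01 to 0.31, adjusted p = 0.118) and -0.08 with WT-HER2 (-0.23 to 0.07, adjusted p = 0.718). Over the 9 arrays RPTOR and MTOR had the highest correlation of the 21 pairs of members (Pearson r = 0.93), given as a description because the points share groups and arrays.

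RICTOR (8111698, Entrez gene 253260) encodes the scaffold that defines mTOR complex 2, which phosphorylates AKT. It read 7.12, 7.44 and 7.45 in control, 7.48, 7.42 and 7.13 in WT-HER2 and 7.42, 7.31 and 7.46 in Delta-HER2 arrays. The groups overlapped fully, and the 2 lowest values came from control replicate 1 and WT-HER2 replicate 3, the arrays that stood apart. The difference was 0.06 with Delta-HER2 (95% interval -0.21 to 0.33) and 0.01 with WT-HER2 (-0.26 to 0.28), so differences of up to 0.33 in size lie within these intervals. Without both of these arrays, the difference with Delta-HER2 was -0.05 (adjusted p = 0.658).

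DEPTOR (8148059, Entrez gene 64798) encodes a subunit that binds mTOR and inhibits it. Control arrays read 5.23, 5.25 and 5.40, WT-HER2 arrays 5.02, 5.05 and 4.71, and Delta-HER2 arrays 4.54, 4.58 and 4.73. All arrays of both HER2 lines were below all control arrays, and WT-HER2 replicate 3 fell within the Delta-HER2 range. DEPTOR fell by 0.67 with Delta-HER2 (1.59-fold, SE 0.11, adjusted p = 0.00111). With WT-HER2 the difference was -0.36 (SE 0.11, adjusted p = 0.176), and between the HER2 lines -0.30 (adjusted p = 0.0703). Without WT-HER2 replicate 3 the latter was -0.41 and passed (adjusted p = 0.00890).

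AKT1 (7981494, Entrez gene 207) encodes the AKT kinase that is most widely expressed. It read 7.41, 7.44 and 7.40 in control, 7.47, 7.62 and 7.47 in WT-HER2 and 8.14, 8.01 and 8.10 in Delta-HER2 arrays. Every Delta-HER2 array exceeded every other array. AKT1 rose by 0.67 with Delta-HER2 (1.59-fold, SE 0.07, adjusted p = 9.48e-05) and stood 0.56 above WT-HER2 (adjusted p = 0.000340), calls that held under all 21 alternatives. With WT-HER2 the difference was 0.11 (95% interval -0.05 to 0.27, adjusted p = 0.651). Its relative AKT2 differed by -0.19 with Delta-HER2 and did not pass (adjusted p = 0.0970).

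PIK3R1 (8105778, Entrez gene 5295) encodes p85-alpha, a regulatory subunit that docks PI3-kinase to phosphorylated receptors and adaptors. It read 7.19, 7.33 and 7.39 in control, 7.39, 7.41 and 7.46 in WT-HER2 and 7.62, 7.40 and 7.57 in Delta-HER2 arrays. The Delta-HER2 arrays lay above the control arrays but overlapped those of WT-HER2, and the lowest WT-HER2 array stood just above the highest control array. The difference with Delta-HER2 was 0.22 (95% interval 0.04 to 0.41, adjusted p = 0.0808), and it passed without Delta-HER2 replicate 2 (0.29, adjusted p = 0.0375). With WT-HER2 it was 0.12 (-0.07 to 0.30, adjusted p = 0.673).

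DDIT4 (7928308, Entrez gene 54541) encodes REDD1, which is induced by hypoxia, glucocorticoids and other stress and inhibits mTOR complex 1 through the TSC complex. Control arrays read 8.96, 8.99 and 8.95, WT-HER2 arrays 9.35, 9.56 and 9.44, and Delta-HER2 arrays 9.22, 9.28 and 9.27. Both HER2 lines lay above control without overlap, WT-HER2 highest. DDIT4 rose by 0.48 with WT-HER2 (1.40-fold, SE 0.07, adjusted p = 0.0105), although not without control replicate 3 (adjusted p = 0.0565), and by 0.30 with Delta-HER2 (1.23-fold, adjusted p = 0.0125). The HER2 lines differed by -0.19 (95% interval -0.35 to -0.03, adjusted p = 0.0943), which did not pass, although it did with a variance trend in the model (adjusted p = 0.0449).

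**Figure D2:**
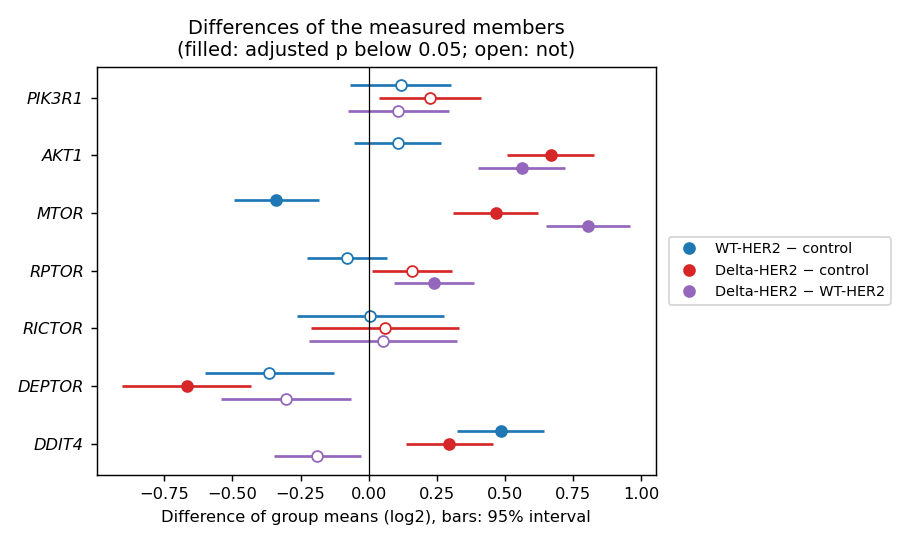
Differences of group means on the log2 scale with 95% intervals for the 7 measured members, with filled points at adjusted p below 0.05 and open points otherwise. MTOR has called differences on both sides of 0, at -0.34 with WT-HER2 and 0.46 with Delta-HER2, and the RICTOR intervals all span 0.

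The genes whose profile over the 9 arrays was most like that of a member were ranked among 13670 genes above background. For MTOR they were S100A8, a calprotectin subunit (r = 0.99, -1.71 with WT-HER2 and 2.66 with Delta-HER2), GLYR1 and LSG1. For AKT1 they were CDK4, a G1 cyclin-dependent kinase (r = 1.00, 0.74 with Delta-HER2), ACAD9 and TNFRSF10A. DEPTOR was matched by LOC389834, PCDHB12 and SRRM2 (r = 0.98 for each), and DDIT4 by EML1, SRPX2 and ITGA10 (r = 0.93 to 0.95). With 3 groups of arrays, such correlations largely restate the order of the group means.

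The wider pathway was read from a list of 96 genes in 13 role groups, of which 84 were measured and 77 of these were not members. With WT-HER2, 0 of the 77 were called by limma after adjustment and 13 (16.9%) had an unadjusted p below 0.05, against 11.2% of all genes. Array weights raised the calls from 2 to 7 of all 84. With Delta-HER2, 10 rose and 20 fell, where 13.6% of all genes were called higher and 11.7% lower. Their median was -0.05 against -0.01 over all genes. Without genes under the background bound, 37 of 78 pathway genes, members included, were called with Delta-HER2, where 4760 of 13671 genes were. For the contrast of the HER2 lines these counts were 37 of 78 and 4317 of 13671. Between the HER2 lines 12 of the 77 were higher and 20 lower with Delta-HER2, where 13.4% and 9.35% of all genes were. Called there but not against control were PIK3CD (-0.42, adjusted p = 0.0199), PHLPP2 (0.64, 0.0210), MAPKAP1 (0.44, 0.0101), NPRL3 (0.26, 0.0299) and EIF4B (-0.24, 0.0372). Of these, MAPKAP1 alone kept its call whichever array was left out.

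At the level of PI3K, the class I catalytic subunit genes PIK3CB and PIK3CD differed by -0.11 and -0.15 with Delta-HER2 and did not pass, and PIK3CG, a subunit of leukocytes, lay within background in all groups. PIK3IP1, whose membrane protein inhibits PI3-kinase, read 8.35, 8.38 and 8.50 in control, 8.09, 8.23 and 8.02 in WT-HER2 and 6.60, 6.81 and 6.60 in Delta-HER2 arrays. It fell by 1.74 with Delta-HER2 (3.35-fold, SE 0.09), the largest change in the list, and is counted among FOXO targets as well. All 4 adaptors measured were called with Delta-HER2 (25.4% of all genes were called). IRS1, which couples insulin receptors to PI3K, rose by 0.61 (SE 0.10, adjusted p = 0.00136) from a low control level of 3.85. In contrast, IRS2 fell by 0.57 (SE 0.08), GAB2 by 0.54 (SE 0.07) and GAB1 by 0.56 (adjusted p = 0.0297). GAB1 did not pass when control replicate 2 was left out (adjusted p = 0.0964), nor without control replicate 3 (0.110) or Delta-HER2 replicate 1 (0.0567) or 2 (0.0860). The class II kinase genes PIK3C2B and PIK3C2G fell by 0.47 and 0.74.

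Among 6 lipid and AKT phosphatases measured, 2 fell and 1 rose with Delta-HER2 (25.4% of all genes were called). INPPL1 (SHIP2) fell by 0.82 (SE 0.07, adjusted p = 2.58e-05) and INPP5D (SHIP1) by 0.68 (SE 0.06); both remove the 5-phosphate of the lipid that PI3K makes. INPP4B, a 4-phosphatase, rose by 0.44 (SE 0.10, adjusted p = 0.00907). SGK1, a kinase related to AKT, rose by 0.29 (adjusted p = 0.0135), but not without Delta-HER2 replicate 1 (adjusted p = 0.0560).

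Of 10 subunits and assembly factors of the mTOR complexes, 4 rose and 1, DEPTOR, fell with Delta-HER2 (25.4% of all genes were called). Beside MTOR these were TTI1, which helps to assemble the complexes (0.68, SE 0.11, adjusted p = 0.00173), PRR5L, a partner of mTOR complex 2 (0.72, from a low control level of 3.80), and MLST8, a subunit of both complexes (0.25, adjusted p = 0.0440). MLST8 lost its call when any 1 of 7 of the 9 arrays was left out, the exceptions being control replicate 1 and WT-HER2 replicate 3 (adjusted p up to 0.150). Upstream, both TSC genes fell with Delta-HER2, TSC1 by 0.59 (SE 0.09) and TSC2 by 0.44 (SE 0.08), and RHEB, the GTPase that TSC restrains, differed by 0.13 without passing.

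Of the 6 stress-induced inhibitors, 2 rose and 2 fell with Delta-HER2 (13.6% of all genes were called higher and 11.7% lower). TRIB3, a pseudokinase that binds AKT and is induced by amino acid stress, rose by 1.40 (2.63-fold, SE 0.11, adjusted p = 1.46e-05), like DDIT4. SESN3 fell by 1.14 (2.21-fold, SE 0.11) and SESN1 by 0.52 (SE 0.11); both encode sestrins, which restrain mTOR complex 1. SESN2 and DDIT4L were not called.

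**Figure D3:**
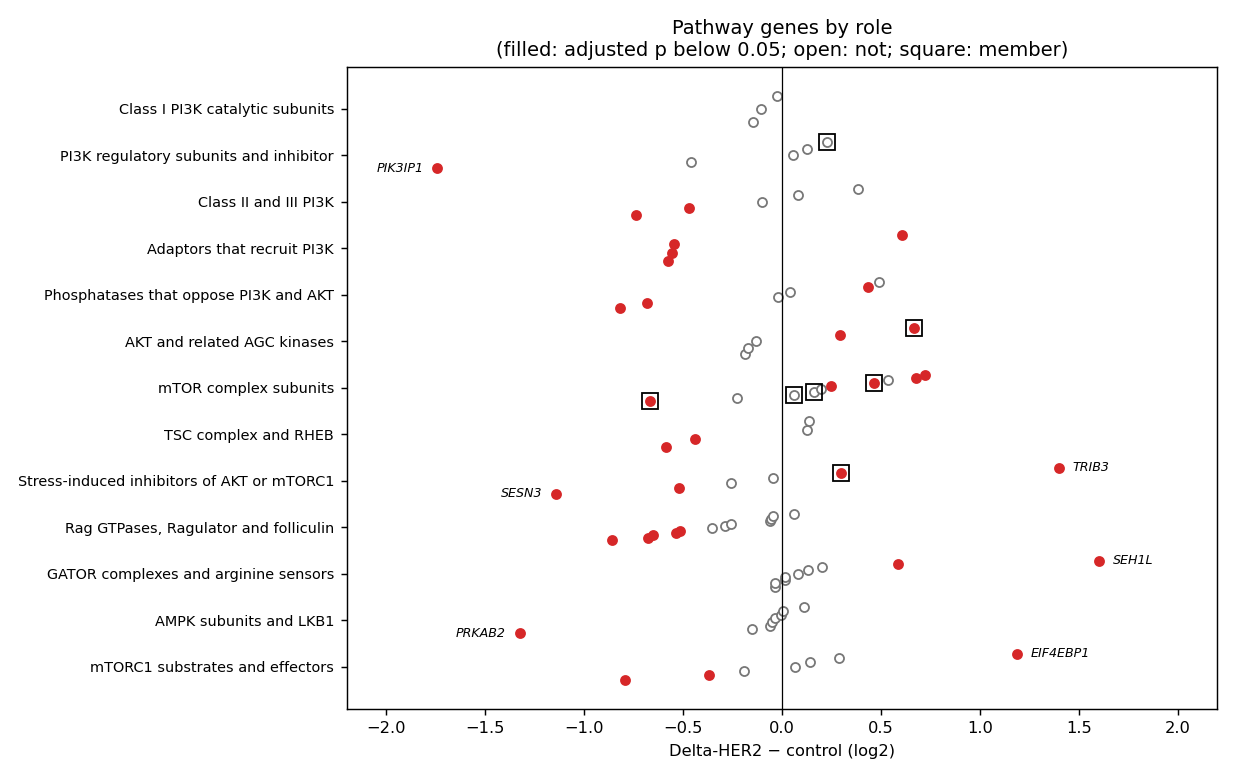
Difference between Delta-HER2 and control on the log2 scale for the 84 measured pathway genes by role, with filled points at adjusted p below 0.05 and squares around the 7 members. PIK3IP1 lies farthest to the left (-1.74) and SEH1L farthest to the right (1.60).

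The Rag GTPases, the Ragulator scaffold and folliculin place mTOR complex 1 on the lysosome. Of 12 of their genes measured, 5 fell with Delta-HER2 (11.7% of all genes were called lower). They were RRAGC (by 0.86, SE 0.10, adjusted p = 0.000200), FNIP1 (by 0.68, SE 0.07), FLCN (by 0.65, SE 0.09), RRAGB (by 0.52, SE 0.11) and LAMTOR4 (by 0.54, adjusted p = 0.0430). LAMTOR4 lost its call when any 1 array other than Delta-HER2 replicate 2 was left out (adjusted p from 0.0522 to 0.114).

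TFE transcription factors, regulators of lysosomal genes, bind the letters CACGTG, which read the same on both strands, and RRAGC is among their known targets. The letters were chosen for that reason after the values had been seen, so their presence in RRAGC or its group is a description and supports no cause. In the 250 bases before each RefSeq start (GRCh38.p14) they were present in 4 of 18 pathway genes searched that fell with Delta-HER2 (TSC2, RRAGB, RRAGC and LAMTOR4), in 1 of 11 that rose (INPP4B) and in 3 of 43 that were not called. Over all 27305 genes with a promoter entry the share was 7.73%. The stretches around the letters are shown for the 3 Rag and Ragulator genes; capitals mark CACGTG, and the sequences run 5′ to 3′ toward the start.
RRAGC: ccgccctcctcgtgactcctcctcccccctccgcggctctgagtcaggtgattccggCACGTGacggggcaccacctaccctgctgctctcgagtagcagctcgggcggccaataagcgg
RRAGB: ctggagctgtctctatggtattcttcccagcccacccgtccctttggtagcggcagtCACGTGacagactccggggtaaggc
LAMTOR4: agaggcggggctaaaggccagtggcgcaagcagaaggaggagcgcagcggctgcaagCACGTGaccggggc
They lie at chr1:38859822-38859941 (minus strand), chrX:55717667-55717748 (plus) and chr7:100148847-100148917 (plus). The window of RRAGB held the motif at 2 positions, of which the one nearer the start is printed. Among the 6 measured members with an entry, 0 held CACGTG and 0 held GTAAACA or its reverse complement, the FOXO core, which 3.66% of all such genes held. A match describes letters and not binding.

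Of 9 genes of the GATOR complexes and arginine sensors, 2 were called with Delta-HER2, both higher, a share near the 25.4% over all genes. SEH1L read 5.87, 6.29 and 6.18 in control, 6.17, 6.24 and 5.89 in WT-HER2 and 7.73, 7.67 and 7.74 in Delta-HER2 arrays, and rose by 1.60 (3.04-fold, SE 0.12, adjusted p = 1.16e-05). SEC13 rose by 0.58 (SE 0.09). Both proteins are also structural parts of the nuclear pore, and the 7 other genes of the group, among them DEPDC5 and NPRL2, were not called against control. PRKAB2, a regulatory subunit of AMPK, fell by 1.33 (2.51-fold, SE 0.08), the one call among 8 genes of AMPK and its activating kinase LKB1. That share lies under the 25.4% called over all genes.

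Among 7 substrates and effectors of mTOR complex 1, 1 rose and 2 fell with Delta-HER2 (25.4% of all genes were called). EIF4EBP1, a repressor of cap-dependent translation that mTOR inactivates, rose by 1.19 (2.28-fold, SE 0.13, adjusted p = 0.000108), whereas its relative EIF4EBP2 fell by 0.37 (SE 0.08, adjusted p = 0.00938). ULK1, a kinase that starts autophagy and is inhibited by mTOR complex 1, fell by 0.80 (SE 0.08). The S6 kinase genes RPS6KB1 and RPS6KB2 differed by 0.14 and 0.06 and were not called.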

How the data were processed

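RNA of 9 MCF10A samples was profiled on Affymetrix arrays. The deposited log2 values were made by the authors with RMA (affy, R 2.14), per the submitters' processing notes. RMA subtracts a background, equalises the distributions of probe signals across arrays and then pools probes into 1 value per transcript cluster. These steps compress differences of weak signals. The deposited values themselves had array medians from 4.04 to 4.18. The genome build is not given in the sources used here. Of 32321 transcript clusters, 19158 carried 1 symbol, giving 18404 genes. Tests used limma 3.58.1 under R 4.3.3 (all 9 arrays, two-sided moderated tests, Benjamini-Hochberg over all genes, called at adjusted p below 0.05). The same steps had first been tested on simulated arrays. Those were drawn independently, so they cannot show how deviations shared between arrays act on the calls. The number of arrays limits the precision (median SE 0.10). Numbers of replicates were not used as pairs, since the labels do not say that a number marks a shared culture day. After group means were removed, same-numbered arrays correlated above 0.1 in 3 of 9 pairs. Of the 9 arrays, 1 then correlated best with an array of its own number. The members, the pathway list and the alternatives were chosen with earlier results of these data known. Named genes are the members, ERBB2 and ERBB3, up to 3 called genes with the smallest p per role group and contrast (or a whole count of 5 or fewer), and the 3 genes most like each member called by the F test; genes given as not called, and the markers quoted, were picked after their values were seen. Sequences are from RefSeq, and the promoter of 1 pathway gene that fell was left out of the motif search and is not reported here.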

Additional observations from a re-analysis of the deposited data

Results flagged for a closer look

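MTOR differed by 0.80 log2 between the HER2 lines, because it was lower than control on all 3 WT-HER2 arrays and higher on all 3 Delta-HER2 arrays; the difference itself passed the test (adjusted p = 3.05e-05). RPTOR did the same on a smaller scale, with a difference of 0.24 between the lines (adjusted p = 0.0264), although neither of its differences from control passed. Between the lines, the adjusted p stayed below 0.05 under all 21 alternatives for MTOR and under 13 of 21 for RPTOR. The fall of MTOR with WT-HER2 stayed below 0.05 under 6 of 21.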

How the results depend on the processing

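The comparison of WT-HER2 with control was the least stable. Its count of 2 members called became 1 with median centring, the filter on low values, robust variance, the replicate block or both arrays that stood apart left out, became 0 with this pair of groups alone or at adjusted p below 0.01, and ranged from 0 to 1 with 1 array left out. Its count of 2 pathway genes likewise became 1 with median centring, the filter, robust variance or the replicate block and 0 with the pair alone or at the stricter threshold, rose to 7 with array weights, and ranged from 0 to 2 with 1 array left out. The count over all genes (309) was 736 with array weights, 139 with the replicate block, 134 with the pair alone, 115 at the stricter threshold and 126 to 279 with 1 array left out. Between the HER2 lines the stricter threshold left 23 of 35 pathway genes and 2772 of 4191 genes. Counts for Delta-HER2 against control stayed within 1.5 times. RICTOR, called under none of these alternatives, changed sign between the HER2 lines with quantile normalization (-0.011), array weights (-0.0085), without both arrays that stood apart (-0.055) and with 1 array left out (-0.055 to 0.12). With WT-HER2 it did so after median centring (-0.0073) and with 1 array left out (-0.10 to 0.11), and with Delta-HER2 without both arrays (-0.049) and with 1 array left out (-0.049 to 0.12). RPTOR between the lines also missed the threshold with quantile normalization (0.0707), variance trend (0.0566), the replicate block (0.0689) and the pair alone (0.0527), and DDIT4 with WT-HER2 did with the pair alone (0.0613). Array weights added calls for RPTOR (0.0333) and PIK3R1 (0.0269) with Delta-HER2 and for DEPTOR between the lines (0.00613), and a variance trend added DDIT4 between the lines (0.0449). Of 62 calls of other pathway genes, 48 held under all alternatives other than the stricter threshold.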
